A study of Mus musculus with 56 samples.

Results

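TH17 cells and Treg cells were compared with each other in the absence of Dohh, to ask which differences between these lineages are left when both lack deoxyhypusine hydroxylase. The comparison rested on 3 TH17 libraries and 3 Treg libraries labelled Dohh-/-, which are 6 of the 56 libraries of the series and were chosen by their labels alone. Each library is mRNA from CD4+ T cells of C57BL/6 mice, isolated from spleen and lymph nodes by negative selection and polarized in culture for 4 days. The study's methods call the starting cells naive. The mice carried floxed alleles of Dohh and, in the deficient group, Cre under the control of the Cd4 promoter, so that exons 2 to 4 were removed in every T cell that had passed through a stage with CD4 expression, CD8+ T cells included. The WT group came from littermates that also carried the floxed alleles but no Cre, and the mice were 6 to 10 weeks old. All cultures held anti-CD3 at 5 µg/mL, anti-CD28 at 2 µg/mL and IL-2 at 100 U/mL. TH17 cultures also held IL-6 and TGF-β at 5 ng/mL each, IL-1β, and antibodies to IFN-γ and IL-4 at 10 µg/mL. Treg cultures held TGF-β at 10 ng/mL, further IL-2 at 10 ng/mL, and the same antibodies at 4 µg/mL. The cytokines thus differ with the lineage in both genotypes, and 3 WT libraries of each lineage served for comparison. The labels name biological replicates without tying a library to an animal.

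DOHH carries out the last step in the synthesis of hypusine, an amino acid made from the polyamine spermidine on a single lysine of the translation factor eIF5A. Hypusinated eIF5A helps ribosomes past sequences that translate slowly. TH17 cells arise under IL-6 and TGF-β through STAT3, and secrete IL-17A and IL-17F. Induced Treg cells arise under TGF-β and IL-2 through SMAD proteins and STAT5, and are defined by the transcription factor FOXP3. Both fates thus share TGF-β as a signal.

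Values are given in CPM (counts relative to library size, corrected by TMM), in the order of replicates 1, 2 and 3, and refer to libraries labelled Dohh-/- unless WT is named. A log2 fold change is above 0 where TH17 libraries are higher. Differences were tested with the quasi-likelihood test of edgeR over 13897 genes, and each adjusted p below comes from it after Benjamini-Hochberg adjustment. A gene was called TH17-higher or Treg-higher past a fold change of 2 with an adjusted p under 0.05. In the contrast without Dohh, 25.8% of all genes tested had an unadjusted p under 0.05 in this test, both directions together. Total counts were 6572148 to 11199597 in the TH17 libraries, 9282262 to 10013994 in the Treg libraries and 8328721 to 12576933 in the 6 WT libraries. Where no read was counted, up to 3 reads are allowed for at the 95% level, or 0.226 to 0.453 CPM in these libraries, a limit that covers counting error only.

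Dohh (ENSMUSG00000078440.9, chr10:81384428-81388352 in GRCm38) was at 65.5, 45.2 and 50.2 CPM in TH17 libraries and at 78.3, 79.8 and 93.4 CPM in Treg libraries labelled Dohh-/-. WT libraries held 45.9, 35.02 and 40.4 CPM in TH17 cells and 31.5, 41.5 and 40.4 CPM in Treg cells. The gene's counts were therefore no lower in the libraries labelled Dohh-/-, and the deleted exons were not counted apart from the others, so these counts do not check the label. In what follows, without Dohh and deficient refer to libraries that carry this label. Between the lineages the log2 fold change was -0.64 (SE 0.25, adjusted p = 0.114). Exons of another gene, Gm48551, overlap 47.5% of the exon length of Dohh.

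Libraries labelled Dohh-/- stood apart from WT libraries in markers of the cells they hold. Cd4 was at 79.7, 63.9 and 40.2 CPM in TH17 libraries and at 41.9, 41.8 and 29.1 CPM in Treg libraries, against 790 to 968 CPM in the WT libraries. Cd8a was at 76.1, 129 and 137 CPM in TH17 and at 162, 241 and 322 CPM in Treg libraries, where WT libraries held 4.59 to 11.1 CPM. Every Treg library lay above every TH17 library, as for 16.3% of all genes tested, and Cd8a was not called between the lineages. Trdc, the constant region of the δ chain of the T cell receptor, was at 428 to 676 CPM, against 14.2 to 32.9 CPM in WT libraries. The 16 markers of CD4+ T cells summed to 3840 to 5150 CPM in TH17 and 3480 to 4870 CPM in Treg libraries, against 6980 to 7920 CPM in WT libraries. Among them Trac was lower than in WT libraries (71.7 to 169 against 471 to 524 CPM). Cd3e (98.1 to 289 against 207 to 251 CPM) and Trbc1 (171 to 379 against 249 to 367 CPM) overlapped WT libraries. No member was called between the lineages by edgeR or DESeq2, though 5 had an unadjusted p under 0.05 on the TH17 side and 2 on the Treg side. Over all genes tested, 4.20% were called. In bulk samples, fewer cells of a type and less RNA per cell cannot be told apart.

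**Figure D1:**
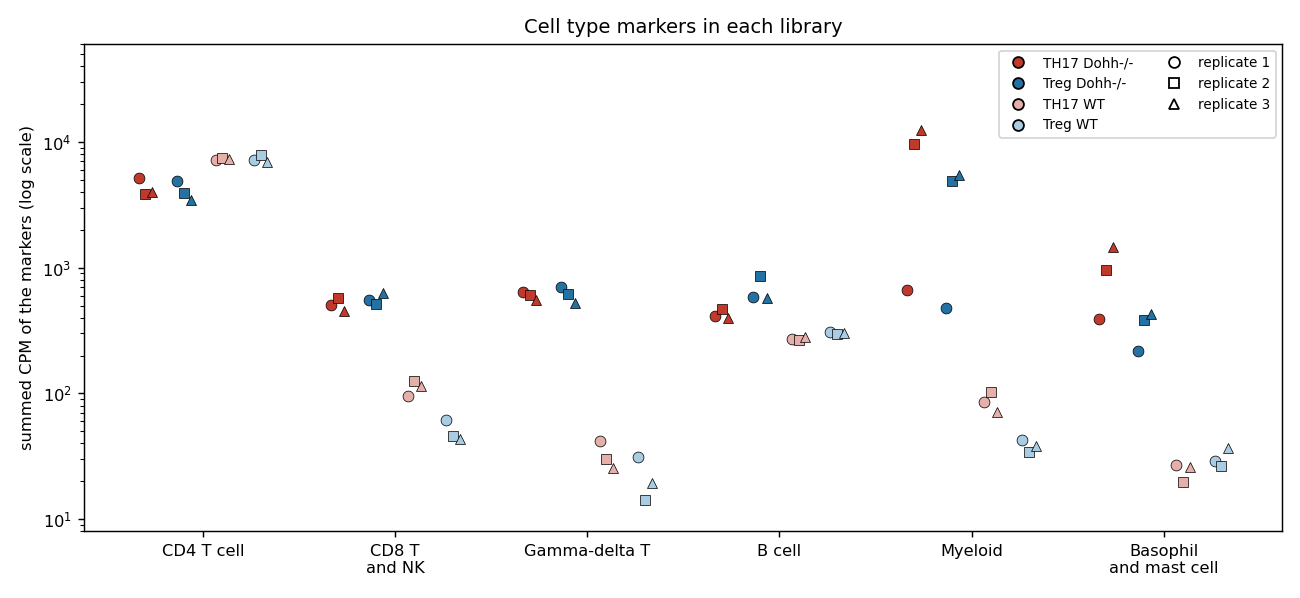
Summed CPM of the markers of each cell type (vertical axis, log scale) in the 12 libraries, coloured by group and shaped by replicate number. Myeloid markers span 478 to 12500 CPM in the libraries labelled Dohh-/- and 34.4 to 103 CPM in the WT libraries.

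Markers of other cells also varied between replicates within a lineage. The 16 myeloid markers summed to 670, 9650 and 12500 CPM in TH17 and to 478, 4890 and 5450 CPM in Treg libraries, and to 34.4 to 103 CPM in WT libraries. Replicate 1 of each lineage was low and replicates 2 and 3 were high, and none of the 15 members tested was called between the lineages by either tool, with 1 at an unadjusted p under 0.05. Basophil and mast cell markers summed to 393, 954 and 1470 CPM in TH17 and 217, 384 and 432 CPM in Treg libraries. None of 14 was called by either tool, 5 had an unadjusted p under 0.05 (25.8% of all genes did), and the median log2 fold change was 1.40. Erythroid and platelet markers summed to 89.4, 131 and 677 CPM against 52.1, 62.7 and 219 CPM, with none of 7 called by edgeR, 1 by DESeq2, 2 at an unadjusted p under 0.05 and a median of 1.54. For the myeloid, the basophil and mast cell, and the erythroid and platelet sums, each TH17 library lay above the Treg library of the same replicate number. Of the markers of γδ T cells, Blk and Cd163l1 were TH17-higher (2 of 5 tested), and of CD8+ T and NK cell markers Eomes was Treg-higher (1 of 7), where 2.69% of all genes were TH17-higher and 1.51% Treg-higher. Blk lost its call without TH17 replicate 3 (adjusted p = 0.0546) or Treg replicate 2 (0.0652), and Cd163l1 without TH17 replicate 3 (0.12), Treg replicate 1 (0.0594) or Treg replicate 2 (0.0928). The summed γδ T cell markers lay at 554 to 641 CPM in TH17 and 526 to 702 CPM in Treg libraries, and those of CD8+ T and NK cells at 456 to 578 and 513 to 625 CPM, so these ranges overlapped. B cell markers summed to 399 to 470 CPM in TH17 and 578 to 862 CPM in Treg libraries, while the median log2 fold change of the 10 members tested was 0.85, with 1 called TH17-higher by edgeR and 2 by DESeq2, and with 4 at an unadjusted p under 0.05 on the TH17 side and 1 on the Treg side. Among defining markers, Itgam was at 0 in all 6 libraries and in the WT libraries too, and Cr2 and Pax5 were at 0 in the Treg libraries. Il2rg, Myd88, Irf8, Oat and Osmr were also at 0 counts in all 6 libraries and were left out of the test. Absent RNA and reads lost in the counting cannot be told apart here, so these zeros are not read as absent expression. The part of other cells in the results below was not tested beyond the fits without single libraries.

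Between TH17 and Treg libraries labelled Dohh-/-, 584 of 13897 genes were called (4.20%), 374 of them TH17-higher (2.69%) and 210 Treg-higher (1.51%). In WT libraries 982 genes were called (7.07%), 535 TH17-higher (3.85%) and 447 Treg-higher (3.22%). The difference between these contrasts, tested as the interaction of lineage and genotype, was called for 713 genes (5.13%), with a higher TH17-over-Treg ratio in the deficient libraries for 391 (2.81%) and a lower one for 322 (2.32%). The libraries of the lineages did not overlap for 328 of the 374 TH17-higher and 203 of the 210 Treg-higher genes, beside 11.5% and 16.3% of all genes tested. The count of 584 was 107 when the 6 libraries were fitted alone and 50 when the 2-fold change itself was tested by glmTreat. It was 358 without Treg replicate 2, 273 without replicate 3 of both lineages (a choice made after the data were seen), and 845 without TH17 replicate 1.

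Of the 535 genes TH17-higher in WT libraries, 76 were also called TH17-higher without Dohh (14.2% of the WT list and 20.3% of the deficient list), 15 were called Treg-higher and 444 were not called. The interaction was called as smaller or turned without Dohh for 184 of the 535 (34.4%), where 2.32% of all genes had a lower ratio called. Of the 447 genes Treg-higher in WT libraries, 56 were also called Treg-higher without Dohh (12.5% and 26.7% of the respective lists), 28 were called TH17-higher and 363 were not called. Here the interaction was called for 216 genes (48.3%), where 2.81% of all genes had a higher ratio called. The log2 fold change kept its sign for 373 of the 535 TH17-higher genes (69.7%) and for 214 of the 447 Treg-higher genes (47.9%). Conversely, 270 of the 374 genes TH17-higher and 139 of the 210 Treg-higher without Dohh were not called in WT libraries, and the interaction was called for 91 and 45 of these. Each list was chosen by a contrast that is part of the interaction, so the choice itself favours interaction calls. The signatures described below come from other WT libraries.

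**Figure D2:**
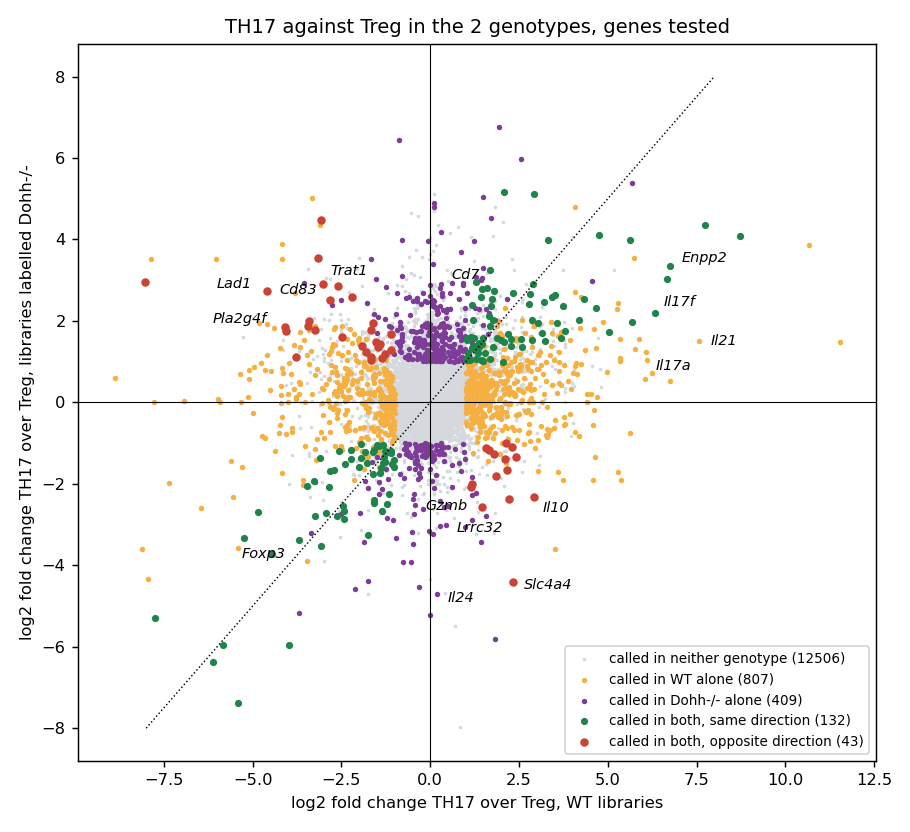
Each point is 1 of 13897 genes, with the log2 fold change of TH17 over Treg cells in WT libraries (horizontal axis) and in libraries labelled Dohh-/- (vertical axis); colours mark where a gene was called, and the dotted line marks equal values. Il17f and Foxp3 have the same direction in both, while Il10 and Slc4a4, and Lad1, Cd83 and Pla2g4f, lie in the quadrants of opposite direction.

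Among 29 tested genes of the TH17 program, 10 were TH17-higher and 3 Treg-higher without Dohh, with a median log2 fold change of 0.61, where over all genes 2.69% were TH17-higher, 1.51% were Treg-higher and the median was 0.02. In WT libraries 16 were TH17-higher and 1 was Treg-higher (3.85% and 3.22% of all genes), with a median of 1.70. The TH17-higher members include a transcription factor of the lineage. Rora, a nuclear receptor, was at 38.3, 36.7 and 21.3 CPM in TH17 and 12.9, 7.88 and 7.42 CPM in Treg libraries, without overlap (log2 fold change 1.78, SE 0.33, adjusted p = 0.002). In the fit of the 6 libraries alone Rora had an adjusted p of 0.0509.

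Il17f and Il17a, the cytokines that name the lineage, had smaller fold changes without Dohh than in WT libraries. Il17f (chr1:20777146-20790617) was at 328, 210 and 178 CPM in TH17 libraries and at 46.5, 25.1 and 85.7 CPM in Treg libraries. The groups did not overlap, with a log2 fold change of 2.19 (SE 0.42, adjusted p = 0.00293). WT Treg libraries held 4.14, 1.70 and 2.22 CPM against 218, 261 and 190 CPM in WT TH17 libraries, so that the WT fold change was 6.33 and the interaction -4.14 (adjusted p = 0.000329). Il17a was at 360, 165 and 140 CPM in TH17 and at 76.9, 50.3 and 156 CPM in Treg libraries. Treg replicate 3 lay above TH17 replicate 3, and the fold change of 1.23 (SE 0.48, adjusted p = 0.11) was not called. With the replicate number as a block it was 1.33 (adjusted p = 0.0228) and was called, as it was without replicate 3 of both lineages (2.09, adjusted p = 0.0439). In WT libraries Il17a was at 37.9, 29.4 and 21.4 CPM in TH17 and 0.60, 0.61 and 0.09 CPM in Treg cells, a fold change of 6.09 from which the deficient contrast differed by -4.86 (adjusted p = 0.00216).

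Il21, a cytokine that TH17 cells make and respond to, was at 17.9, 9.97 and 1.51 CPM in TH17 and 5.97, 3.33 and 1.34 CPM in Treg libraries. These ranges overlapped, and the fold change of 1.51 (adjusted p = 0.0773) was not called, although DESeq2 called it (adjusted p = 0.0311), as did the fits without TH17 replicate 3 (2.02, adjusted p = 0.00454) and without Treg replicate 1 (2.09, adjusted p = 0.0468). Its WT fold change was 7.58 and the interaction -6.08 (adjusted p = 0.000422). Il22, a cytokine of epithelial defence, was at 8.42, 4.58 and 5.14 CPM in TH17 and 5.30, 3.33 and 24.1 CPM in Treg libraries, with no call (log2 fold change -0.85, adjusted p = 0.357). Ccl20, the ligand of CCR6, was not called either (-0.23, adjusted p = 0.795).

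Of the receptors among the defining genes, Il23r, Il1r1 and Ccr6 were TH17-higher. Il23r, the receptor for the cytokine that maintains them, was at 4.57, 2.73 and 3.17 CPM in TH17 and 0.44, 0.40 and 0.41 CPM in Treg libraries, the latter near the limit that a count of 0 allows. Its log2 fold change was 3.02 (SE 0.51, adjusted p = 0.00107). WT Treg libraries held a single count in all, and the WT ratio of 146 has a counting interval of 25.7 to 5790. Il1r1, the IL-1 receptor, was at 5.88, 8.04 and 7.10 CPM against 1.44, 1.82 and 2.17 CPM (1.95, SE 0.42, adjusted p = 0.00693). Ccr6, the chemokine receptor of TH17 cells, was at 7.71, 3.78 and 1.36 CPM in TH17 and at 0.99, 0.71 and 0.52 CPM in Treg libraries. The groups did not overlap (2.55, SE 0.54, adjusted p = 0.00554), although WT libraries held 17.95 to 30.03 CPM in TH17 and 33.6 to 46.7 CPM in Treg cells and its WT fold change of -0.69 was not called (interaction 3.25, adjusted p = 0.00456). Without TH17 replicate 1 the fold change of Ccr6 was 1.86 and still called. In the fit of the 6 libraries alone Il17f, Ccr6 and Il1r1 had adjusted p of 0.0803, 0.119 and 0.0517, and Il23r of 0.0387.

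Of the other members, Tmem176a and Tmem176b, a pair of neighbouring membrane protein genes, were TH17-higher at 68.8 to 106.5 CPM against 17.4 to 23.6 CPM and at 71.3 to 110.7 CPM against 16.4 to 27.7 CPM. Il17re, the receptor of IL-17C, and Runx1, a transcription factor of T cell development, were TH17-higher with fold changes of 2.01 and 1.36. The members that were Treg-higher were Il24, Il10 and Tgfb3, and are described below. Maf, a transcription factor that TH17 cells use to induce IL-10, had a fold change of 0.37 (adjusted p = 0.516) without Dohh. Ahr, the aryl hydrocarbon receptor, was at 34.3, 34.1 and 16.02 CPM in TH17 and 30.4, 33.2 and 21.1 CPM in Treg libraries. Its groups overlapped (0.00, adjusted p = 1), whereas WT TH17 libraries held 84.0 to 110.5 CPM and WT Treg libraries 6.20 to 18.1 CPM (interaction -2.90, adjusted p = 0.00406).

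**Figure D3:**
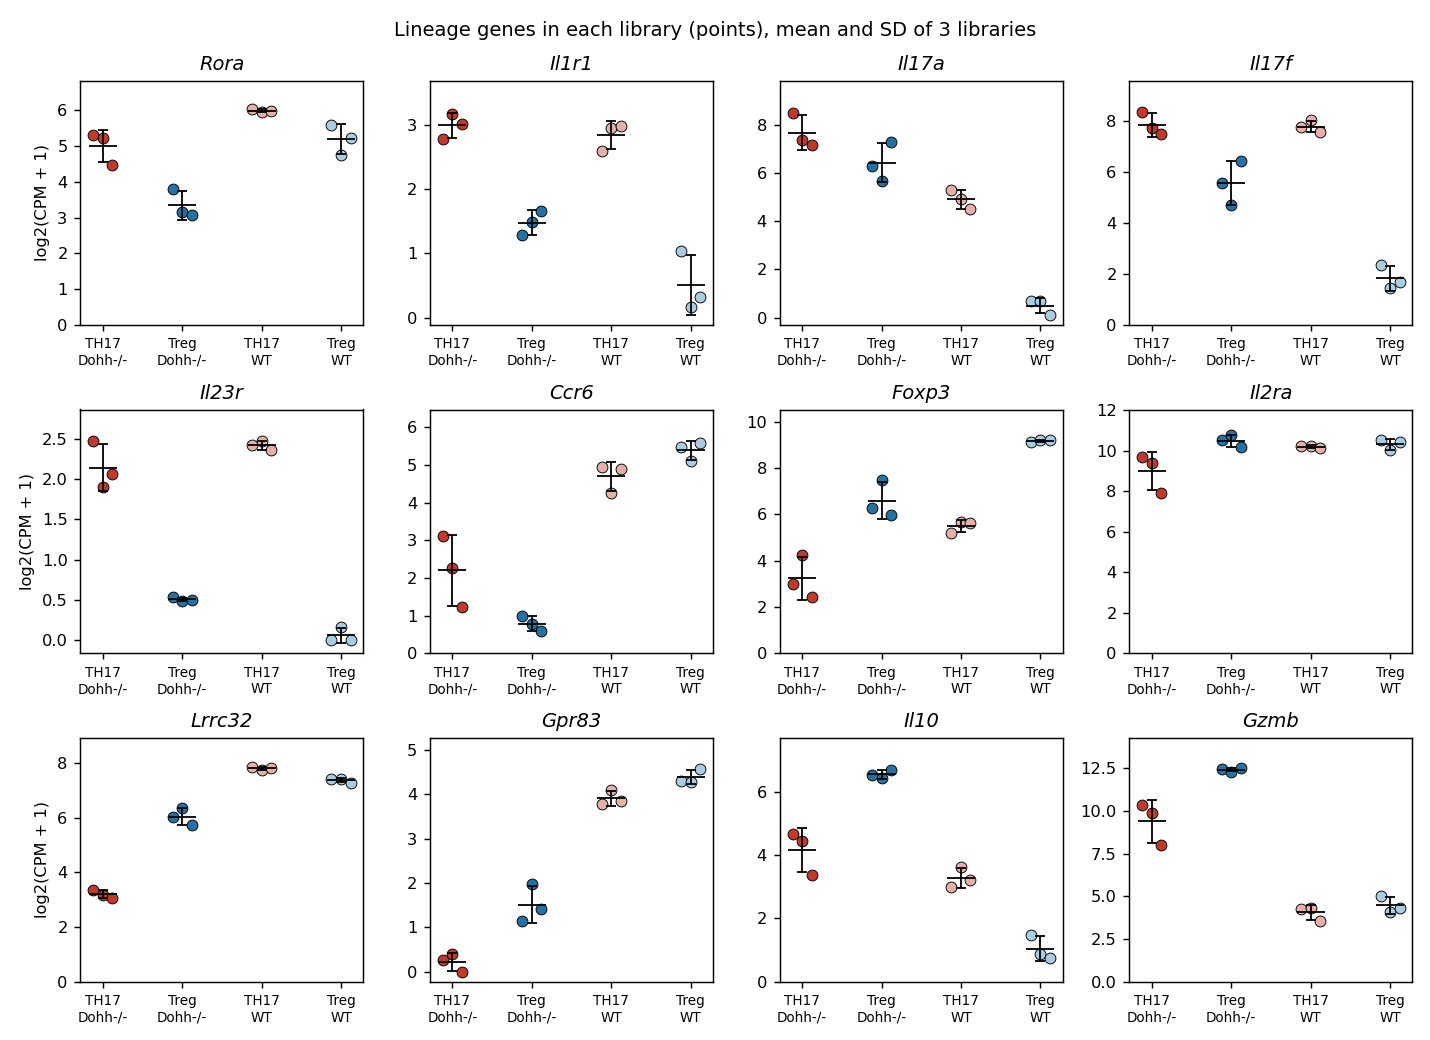
Expression of 12 lineage genes as log2(CPM + 1) in each library (points), with the mean and SD of 3 libraries, in TH17 and Treg cells labelled Dohh-/- and WT. Deficient TH17 and Treg libraries separate for Rora, Il1r1, Il17f, Il23r, Ccr6, Foxp3, Il2ra, Lrrc32, Gpr83, Il10 and Gzmb, and overlap for Il17a.

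Windows from 250 bases before to 50 bases after the start of transcription (RefSeq, GRCm38.p6, read 5′ to 3′ on the strand of the gene) were searched on both strands for a core site of nuclear receptors, AGGTCA, for a STAT site, TTCNNNGAA, and for an AP-1 site, TGANTCA. Of 32851 such windows, 16.3%, 8.30% and 7.81% held them. The windows of 3 TH17-higher genes with the nuclear receptor site are shown, with the match in capitals, for Il17f on the minus strand at chr1:20784221-20784520, for Il23r on the minus strand at chr6:67491806-67492105 and for Ccr6 on the plus strand at chr17:8235793-8236092.
Il17f: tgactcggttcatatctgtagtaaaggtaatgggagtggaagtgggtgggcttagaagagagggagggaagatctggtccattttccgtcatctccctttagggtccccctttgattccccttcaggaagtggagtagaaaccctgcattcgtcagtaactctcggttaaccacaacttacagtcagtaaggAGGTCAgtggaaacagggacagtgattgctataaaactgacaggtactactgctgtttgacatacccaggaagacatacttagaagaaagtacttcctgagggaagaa
Il23r: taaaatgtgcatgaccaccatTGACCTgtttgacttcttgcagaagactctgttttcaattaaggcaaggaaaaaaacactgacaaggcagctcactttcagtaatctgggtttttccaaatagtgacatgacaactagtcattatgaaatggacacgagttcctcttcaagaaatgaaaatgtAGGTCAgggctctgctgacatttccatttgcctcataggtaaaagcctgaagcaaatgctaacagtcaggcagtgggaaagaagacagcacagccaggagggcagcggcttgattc
Ccr6: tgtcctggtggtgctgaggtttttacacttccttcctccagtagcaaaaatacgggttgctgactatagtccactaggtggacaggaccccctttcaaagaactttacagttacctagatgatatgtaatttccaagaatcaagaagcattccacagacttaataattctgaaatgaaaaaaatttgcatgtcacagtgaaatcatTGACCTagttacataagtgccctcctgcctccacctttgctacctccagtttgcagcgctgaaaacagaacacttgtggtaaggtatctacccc
Of the TH17 program, 23 of 30 genes matched the table with 29 windows, and 6 windows (20.7%) held the core site, 2 (6.90%) the STAT site and 1 (3.45%) the AP-1 site. A match describes these letters and is not a measured binding site.

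Of the Treg program, Foxp3 had the largest fold change on the Treg side. The gene (chrX:7573644-7595245) was at 7, 18.2 and 4.38 CPM in TH17 libraries and at 76.9, 178.5 and 61.6 CPM in Treg libraries. Every Treg library lay above every TH17 library, with a log2 fold change of -3.38 (SE 0.49, adjusted p = 0.000356). WT libraries held 36.0, 50.1 and 47.8 CPM in TH17 and 554, 584 and 589 CPM in Treg cells, so that levels were higher in WT libraries of both lineages. The WT fold change of -3.69 differed from that without Dohh by 0.31 (adjusted p = 0.853). Exons of Ccdc22, Flicr, Gm36995 and Ppp1r3f overlap 31.5% of the exon length of Foxp3, and the strand setting of the counting is not given in the sources used here. The fold change of Foxp3 was -4.15 without TH17 replicate 2 and -2.74 without Treg replicate 2, both called. In the fit of the 6 libraries alone its adjusted p was 0.0901. The window of Foxp3, on the plus strand at chrX:7580233-7580532, is shown since it holds the STAT site, in capitals, beside a pair of nuclear receptor sites in lower case.
Foxp3: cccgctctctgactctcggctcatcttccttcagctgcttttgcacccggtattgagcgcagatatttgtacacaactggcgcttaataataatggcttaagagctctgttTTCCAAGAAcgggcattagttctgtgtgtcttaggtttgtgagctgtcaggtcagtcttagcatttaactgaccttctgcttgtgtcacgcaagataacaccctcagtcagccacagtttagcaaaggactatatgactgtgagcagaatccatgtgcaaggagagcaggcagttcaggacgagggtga
Of the Treg program, 20 of 30 genes matched with 23 windows, of which 4 (17.4%) held the STAT site, 4 (17.4%) the nuclear receptor site and 3 (13.0%) the AP-1 site.

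Among the 30 tested genes of the Treg program, 9 were Treg-higher and 5 TH17-higher without Dohh (1.51% and 2.69% of all genes), with a median log2 fold change of -0.18. In WT libraries 10 were Treg-higher and 2 TH17-higher (3.22% and 3.85% of all genes), with a median of -0.41, and 4 members were called in the same direction in both genotypes. Il2ra, which encodes CD25, was at 823, 684 and 243 CPM in TH17 and at 1497, 1757 and 1157 CPM in Treg libraries. The groups did not overlap (log2 fold change -1.33, SE 0.29, adjusted p = 0.00694), and the WT fold change of -0.14 (adjusted p = 0.886) was not called, nor was the interaction (-1.20, adjusted p = 0.0867). Il2ra lost its call without TH17 replicate 3 (-0.91), without Treg replicate 2 (adjusted p = 0.0517) and in the fit of the 6 libraries alone (adjusted p = 0.181). Lrrc32, which encodes GARP and anchors latent TGF-β on the surface of Treg cells, was at 9.23, 8.04 and 7.40 CPM in TH17 and at 64.3, 81.3 and 52.5 CPM in Treg libraries. This wide gap (-2.999, SE 0.29, adjusted p = 4.15e-06) had no counterpart in WT libraries, which held 230, 213 and 227 CPM in TH17 and 171, 169 and 155 CPM in Treg cells (interaction -3.44, adjusted p = 1.25e-05).

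Gpr83, a receptor found on Treg cells, was at 0.20, 0.32 and 0 CPM in TH17 and 1.22, 2.93 and 1.65 CPM in Treg libraries (-3.18, SE 0.60, adjusted p = 0.00243, and 0.105 with the 6 libraries alone), and its fold change was -3.84 without TH17 replicate 2. Its values in TH17 replicates 1 and 3 lie under the limit that a count of 0 allows. Icos, Izumo1r, Entpd1 and Socs2 were also Treg-higher. Other genes used to define Treg cells were not called. Ctla4, the inhibitory receptor, was at 330, 239 and 85.4 CPM in TH17 and 327, 323 and 150.5 CPM in Treg libraries (-0.29, adjusted p = 0.636). Tnfrsf18 (-0.17, adjusted p = 0.692) and Tnfrsf9 (-0.63, adjusted p = 0.0661), which encode GITR and 4-1BB, were likewise not called. Ikzf4, an Ikaros family factor, had a fold change of -0.18 and Itgae, an integrin chain, of 0.62. Ikzf2, which encodes Helios, was at 54.5 to 61.5 CPM in TH17 and 29.6 to 38.6 CPM in Treg libraries, with no call (0.84, adjusted p = 0.16), and lay the other way in WT libraries (-1.67, interaction 2.51, adjusted p = 0.00698).

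The 5 members of the Treg program that were TH17-higher were Nrp1, Ebi3, Bach2, Cd83 and Penk, and 4 of these, all but Bach2, were Treg-higher in WT libraries. Penk, which encodes proenkephalin, was at 202, 148 and 310 CPM in TH17 and 43.6, 44.2 and 103.1 CPM in Treg libraries, against 1.04 to 1.94 and 7.98 to 21.1 CPM in WT libraries (interaction 5.02, adjusted p = 0.000408). Nrp1, the semaphorin receptor neuropilin-1, was at 10.8, 12.9 and 11.3 CPM in TH17 and 2.54, 7.07 and 3.71 CPM in Treg libraries, and at 31.2 to 37.7 and 110.5 to 149.1 CPM in WT libraries (interaction 3.30, adjusted p = 9.28e-05). Cd83, a surface protein of activated lymphocytes and dendritic cells, was at 16.4, 20.8 and 61.7 CPM in TH17 and 4.86, 3.74 and 8.45 CPM in Treg libraries. The fold change of Cd83 was 2.52 (SE 0.58, adjusted p = 0.0117), which fell to 1.77 (adjusted p = 0.0698) without TH17 replicate 3 and was not called without Treg replicate 2 (adjusted p = 0.0601). Ebi3, a subunit of IL-27 and IL-35, had a fold change of 1.10, with TH17 replicate 3 the highest at 44.4 CPM. Bach2, a repressor that keeps T cells undifferentiated, was at 48.7, 39.5 and 32.0 CPM in TH17 and 14.1, 15.6 and 7.22 CPM in Treg libraries (1.71, SE 0.25, adjusted p = 0.000303). With the 6 libraries alone Bach2 and Cd83 had adjusted p of 0.0534 and 0.0941.

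Il10, an anti-inflammatory cytokine that both lists hold, was turned. It was at 24.5, 20.9 and 9.37 CPM in TH17 and at 91.1, 84.7 and 102.7 CPM in Treg libraries. All Treg libraries lay above all TH17 libraries (log2 fold change -2.33, SE 0.30, adjusted p = 0.000105). In WT libraries it was the TH17 cells that held more, 7.02, 11.2 and 8.20 CPM against 1.81, 0.85 and 0.68 CPM, a fold change of 2.92 (interaction -5.25, adjusted p = 1.21e-06). Tgfb3, a TGF-β isoform that promotes pathogenic TH17 cells, was turned in the same way, at 3.25, 3.05 and 4.08 CPM in TH17 and 9.50, 14.3 and 12.3 CPM in Treg libraries (-1.81, interaction -3.66, adjusted p = 0.000376). Without Treg replicate 2 its adjusted p was 0.0523. Il24, a cytokine of the IL-10 family, was at 3.55, 2.57 and 1.058 CPM in TH17 and 51.4, 45.2 and 100.1 CPM in Treg libraries (-4.71, SE 0.88, adjusted p = 0.003), where all WT libraries held 2.66 to 5.46 CPM. Without replicate 3 of both lineages the adjusted p of Il24 was 0.0528.

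Genes that respond to the polarizing cytokines showed an uneven picture. Of 21 tested genes of the IL-6 and STAT3 response, 1, Bcl6, was TH17-higher without Dohh (2.69% of all genes were), against 7 in WT libraries (3.85%). DESeq2 called 3, and 8 had an unadjusted p under 0.05 on the TH17 side, where 25.8% of all genes did in either direction. The interaction was called as lower for 6 (2.32% of all genes). Socs3, the feedback inhibitor of IL-6 signalling, was at 167, 113 and 73.6 CPM in TH17 and 84.8, 109.8 and 87.7 CPM in Treg libraries. These overlapped (0.32, adjusted p = 0.455), while WT libraries held 551 to 622 CPM in TH17 and 128 to 161 CPM in Treg cells (interaction -1.74, adjusted p = 0.00526). Of 19 tested genes of the IL-2 and STAT5 response, 6 were Treg-higher (Il2ra, Socs1, Socs2, Bcl2, Lta and Slc7a5, where 1.51% of all genes were) and 1, Bcl6, was TH17-higher. Bcl2, which protects from apoptosis, was at 70.3, 71.4 and 41.6 CPM in TH17 and 170.1, 161.3 and 193.3 CPM in Treg libraries (-1.51, SE 0.20, adjusted p = 0.000128), with a WT fold change of -1.08. Slc7a5, an amino acid transporter, was at 181, 144 and 138 CPM against 458, 481 and 488.5 CPM (-1.63, SE 0.21, adjusted p = 8.68e-05), and its WT fold change of -0.42 was not called (interaction -1.21, adjusted p = 0.0117). Bcl6, a repressor that STAT5 is known to hold down, had a fold change of 1.74 (adjusted p = 0.0242), which was not called without TH17 replicate 2 (adjusted p = 0.0576), Treg replicate 2 (0.0803) or Treg replicate 3 (0.104).

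Of 23 tested genes of TGF-β signalling, none was TH17-higher by edgeR and 1, Tgfb3, was Treg-higher (2.69% and 1.51% of all genes), against 4 and 3 in WT libraries (3.85% and 3.22%). DESeq2 called 1 TH17-higher, and 3 had an unadjusted p under 0.05 on that side. Of 20 tested genes of the IL-1 family, 3 were TH17-higher in both genotypes (2.69% of all genes were without Dohh and 3.85% in WT libraries), namely Il1r1, the decoy receptor Il1r2 and the inhibitory receptor Sigirr. Il1r2 was at 79.4, 57.1 and 127.5 CPM in TH17 and 25.3, 25.9 and 49.8 CPM in Treg libraries (1.38, adjusted p = 0.0147), and was not called without TH17 replicate 3 (adjusted p = 0.0765), Treg replicate 1 (0.0633) or Treg replicate 2 (0.067). Sigirr had a fold change of 1.10 without Dohh and 1.09 in WT libraries, and fell to 0.89 without TH17 replicate 1 and 0.82 without Treg replicate 3.

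Of 18 tested cytotoxic genes, 14 were not called, 4 were Treg-higher (Gzmb, Gzmc, Gzmd and Fasl, where 1.51% of all genes were Treg-higher) and none TH17-higher, by DESeq2 or at an unadjusted p under 0.05 either, with a median log2 fold change of -0.77. The list summed to 5930, 4710 and 3380 CPM in TH17 and 11200, 9350 and 10500 CPM in Treg libraries, against 854 to 1210 CPM in WT libraries. Cd8a lay higher in every Treg library in the same direction but was not called, and its part in these differences was not tested. Gzmb (chr14:56258838-56262260), the protease granzyme B, was at 1303, 925 and 252 CPM in TH17 and at 5614, 5054 and 5844 CPM in Treg libraries. The groups did not overlap (-2.74, SE 0.42, adjusted p = 0.000404), and all WT libraries held only 10.9 to 31.3 CPM, with no difference called between them (interaction -2.28, adjusted p = 0.0186). The fit of the 6 libraries alone gave Gzmb an adjusted p of 0.0752. Fasl, the death ligand, was at 9.33, 9.24 and 5.29 CPM against 32.0, 27.7 and 32.9 CPM (-1.94, SE 0.35, adjusted p = 0.0018) and was Treg-higher in WT libraries too. Gzmd was at 14.0, 7.72 and 16.02 CPM against 60.4, 42.7 and 56.8 CPM (-2.10, adjusted p = 0.0157, and 0.0667 without TH17 replicate 2). Gzmc, with an adjusted p of 0.0453, lost its call without each of 5 libraries.

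Lta (chr17:35203165-35205351), the cytokine lymphotoxin α, was at 101, 77.1 and 89.0 CPM in TH17 and 365, 449 and 892 CPM in Treg libraries (-2.68, SE 0.40, adjusted p = 0.000387). It was Treg-higher in WT libraries as well (-1.36). The windows of Lta, on the minus strand at chr17:35205302-35205601, and of Gzmb, on the minus strand at chr14:56262285-56262584, are shown for the STAT sites of the former and the AP-1 site of the latter, in capitals.
Lta: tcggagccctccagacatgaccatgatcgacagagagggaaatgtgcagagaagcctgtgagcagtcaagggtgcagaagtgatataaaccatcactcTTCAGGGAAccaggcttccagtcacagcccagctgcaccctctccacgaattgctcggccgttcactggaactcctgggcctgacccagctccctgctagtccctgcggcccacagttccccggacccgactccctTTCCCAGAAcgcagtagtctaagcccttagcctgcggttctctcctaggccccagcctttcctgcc
Gzmb: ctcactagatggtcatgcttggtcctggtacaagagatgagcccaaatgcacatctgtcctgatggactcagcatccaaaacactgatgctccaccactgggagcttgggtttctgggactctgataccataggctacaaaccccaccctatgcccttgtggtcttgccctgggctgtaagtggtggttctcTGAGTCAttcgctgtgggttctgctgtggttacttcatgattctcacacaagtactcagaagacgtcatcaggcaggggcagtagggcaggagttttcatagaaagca
Of the 12 Treg-higher genes with the largest fold changes, 9 matched with 12 windows, of which 3 (25%) held the STAT site, 2 (16.7%) the nuclear receptor site and 1 (8.33%) the AP-1 site. Of the 12 TH17-higher genes with the largest fold changes, 7 matched with 9 windows, of which 4 (44.4%), belonging to 2 genes, held the nuclear receptor site and none the others.

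Genes of the TH1 and TH2 programs were called in both directions, while their defining factors were not called. Of 22 tested TH1 genes, 4 were Treg-higher (Il12rb1, Eomes, Gzmb and Fasl) and 1 TH17-higher (Ccl5), where 1.51% and 2.69% of all genes were. Tbx21, which encodes T-bet, was at 90.5, 52.0 and 39.1 CPM in TH17 and 84.4, 69.0 and 55.7 CPM in Treg libraries. These ranges overlapped (-0.20, adjusted p = 0.727), and all WT libraries held 1.73 to 4.97 CPM. Ifng was at 328, 151.5 and 102.6 CPM against 213, 205 and 267 CPM, again with overlap (-0.23, adjusted p = 0.765), where WT libraries held 2.10 to 6.08 CPM. Of 21 tested TH2 genes, Ccr3 was TH17-higher and Il10 and Nfil3 were Treg-higher. Gata3, the factor that defines TH2 cells, was at 24.5, 14.6 and 27.2 CPM in TH17 and 11.6, 13.4 and 10.5 CPM in Treg libraries, without overlap. Its fold change of 0.89 (adjusted p = 0.0192) stayed under 2-fold, but passed it without TH17 replicate 2 (1.15) and without Treg replicate 2 (1.02), and it was turned against WT libraries (-1.80, interaction 2.69, adjusted p = 2.43e-05). Il13 was not called (0.56, adjusted p = 0.263). Nfil3, a transcription factor of many lymphocytes, was at 53.7, 48.1 and 22.7 CPM against 123.7, 102 and 74.0 CPM (-1.26), where WT TH17 libraries were the higher (interaction -3.05, adjusted p = 4.38e-05). The fold change of Nfil3 was -0.92 without TH17 replicate 3, and its adjusted p with the 6 libraries alone was 0.134.

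Of 38 tested cytokines, 4 were TH17-higher (Il17f, Ebi3, Tnfsf8 and Tnfsf14) and 5 Treg-higher (Il10, Il24, Lta, Fasl and Tgfb3), where 2.69% and 1.51% of all genes were. Of chemokines and their receptors, 8 of 31 were TH17-higher and 23 were not called, with none Treg-higher by edgeR or DESeq2 (2 at an unadjusted p under 0.05) and a median log2 fold change of 0.83. The 8 were Ccl1, Ccl5, Ccl9, Cxcl2, Ccr3, Ccr6, Cxcr4 and Cx3cr1, of which Ccl9, Cxcl2, Ccr3 and Cx3cr1 are also expressed by myeloid cells or granulocytes. Ccl5, which attracts T cells, was at 43.3, 22.9 and 29.8 CPM in TH17 and 7.95, 8.99 and 10.1 CPM in Treg libraries (1.82, SE 0.34, adjusted p = 0.00205, interaction 2.66). Ccl1, a ligand of CCR8, was at 36.7, 34.3 and 190.8 CPM against 10.1, 9.09 and 15.2 CPM (2.93, SE 0.62, adjusted p = 0.00915). Without TH17 replicate 3, the highest library, Ccl1 had a fold change of 1.69 (adjusted p = 0.0607). Cxcl2 was at 1.73, 4.18 and 25.2 CPM against 0.11, 0.71 and 2.99 CPM, in the order of the summed myeloid markers within each lineage. The part of myeloid cells in this result was not tested. Without TH17 replicate 3 the fold change of Cxcl2 was 1.27 in place of 2.99 (adjusted p = 0.414). The groups of Cxcl2 overlapped. Its call was also lost without Treg replicate 1 (adjusted p = 0.121) or 2 (0.151) and with the 6 libraries alone (0.277). Ccr3 lost its call without each of 5 libraries.

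Of the naive and memory T cell genes, Lef1 and Bach2 were TH17-higher. Lef1, a factor of early T cells, had a fold change of 1.22, which was 0.84 without TH17 replicate 1 and lost its call without Treg replicate 2 (adjusted p = 0.0581) or Treg replicate 3 (0.0765). Of 18 tested coinhibitory receptors, Tox and NR4A factors, 3 were TH17-higher (Tox2, Nr4a1 and Nr4a2, where 2.69% of all genes were) and none Treg-higher by either tool (2 at an unadjusted p under 0.05), where 5 were Treg-higher in WT libraries (3.22% of all genes), and the interaction was called as higher for 6 (2.81% of all genes). Nr4a1, an immediate target of the T cell receptor, was at 143, 67.7 and 102 CPM in TH17 and 33.9, 29.5 and 22.1 CPM in Treg libraries. The groups did not overlap (1.87, SE 0.41, adjusted p = 0.00807), and WT Treg libraries held 208 to 257 CPM against 97.3 to 121 CPM in WT TH17 libraries, with no call (-1.17) but a called interaction (3.04, adjusted p = 0.00222). Nr4a2 was at 52.4, 37.4 and 23.9 CPM against 15.7, 12.8 and 10.6 CPM, and lost its call without Treg replicate 2 (adjusted p = 0.0581) or Treg replicate 3 (0.0702). Tox2 was at 9.03, 6.59 and 3.17 CPM against 1.33, 1.72 and 0.62 CPM (2.36, adjusted p = 0.0051), as in WT libraries (3.75), with an adjusted p of 0.0927 in the fit of the 6 libraries alone. Of 26 AP-1, BATF, IRF and MAF factors, 1 was called (4.20% of all genes were), Fosl1, which was Treg-higher at 3.43, 3.43 and 6.70 CPM against 1.73, 1.93 and 1.66 CPM and had an adjusted p of 0.0679 without TH17 replicate 3 and 0.132 without Treg replicate 3. Exons of other genes overlap 57.2% of the exon length of Fosl1.

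**Figure D4:**
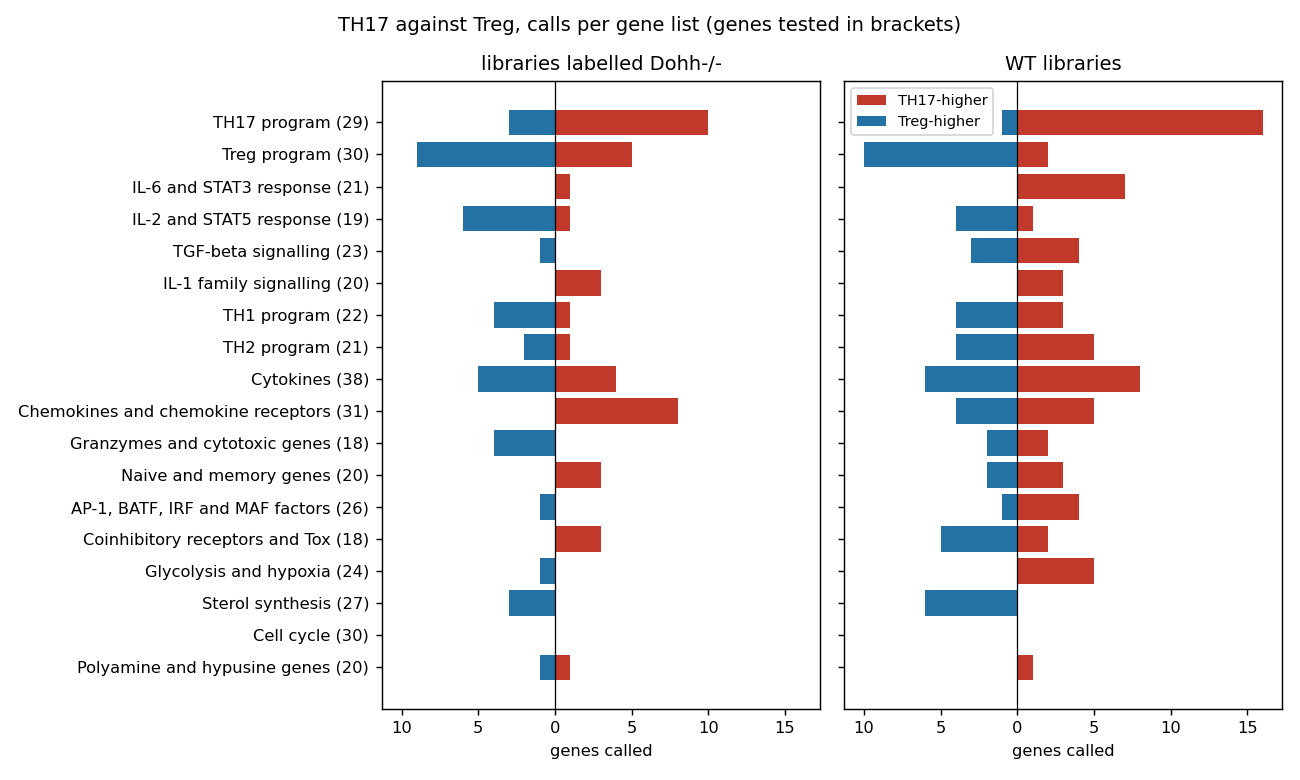
Number of genes called TH17-higher (red, to the right) and Treg-higher (blue, to the left) per gene list in libraries labelled Dohh-/- and in WT libraries, with the number of genes tested in brackets. The TH17 program has 10 and 3 calls without Dohh and 16 and 1 in WT, and chemokines and their receptors have 8 and 0 without Dohh and 5 and 4 in WT.

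Metabolic and cell cycle genes were examined beside the 2.69% of all genes that were TH17-higher and the 1.51% that were Treg-higher. In WT libraries these shares were 3.85% and 3.22%. Without Dohh 25.8% of all genes had an unadjusted p under 0.05, both directions together. Of 24 tested genes of glycolysis and hypoxia, 5 were TH17-higher in WT libraries and none without Dohh, by DESeq2 or at an unadjusted p under 0.05 either. On the Treg side 1, Bnip3, was called and 11 had an unadjusted p under 0.05. Bnip3, a mitochondrial protein induced in hypoxia, was at 88.8, 71.1 and 45.5 CPM in TH17 and 269, 204 and 187 CPM in Treg libraries, without overlap (-1.68, SE 0.24, adjusted p = 0.000237, interaction -2.55). Of 27 genes of sterol and lipid synthesis, 3 were Treg-higher (Lss, Scd1 and Fasn) and 6 in WT libraries. Lss, lanosterol synthase, was at 81.6, 77.0 and 48.1 CPM against 165.5, 153.3 and 159 CPM (-1.21, adjusted p = 0.000559). Without TH17 replicate 3 the fold changes of Lss, Scd1 and Fasn were -0.95, -0.75 and -0.82 (with the 6 libraries alone the adjusted p of Lss was 0.0577), all short of 2-fold, and without Treg replicate 2 Scd1 and Fasn had adjusted p of 0.0706 and 0.0905. The 30 cell cycle genes summed to 4610 to 5290 CPM in TH17 and 7200 to 7330 CPM in Treg libraries and to 3420 to 3630 CPM in WT libraries, with no member called by edgeR or DESeq2, 21 at an unadjusted p under 0.05 on the Treg side and 1 on the TH17 side, and a median fold change of -0.57. Of 20 tested genes of polyamine and hypusine metabolism, Smox, the spermine oxidase, was TH17-higher and Srm, the spermidine synthase, Treg-higher. Smox was at 132.6, 80.8 and 54.4 CPM against 57.5, 43.3 and 30.8 CPM, with overlap. Its fold change was 1.03, fell to 0.99 under the replicate block and to 0.62 without TH17 replicate 1, and it was not called without Treg replicate 2 (adjusted p = 0.0722) or Treg replicate 3 (0.103) either. Srm was at 107.6, 79.2 and 110.6 CPM against 172.6, 234.6 and 281.5 CPM (-1.21, adjusted p = 0.0231, and over 0.05 without TH17 replicate 2 or 3 or Treg replicate 2 or 3).

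Among the genes with the largest TH17-higher fold changes, Enpp2, the enzyme autotaxin, was at 26.3, 21.4 and 6.80 CPM in TH17 and 2.87, 0.71 and 1.86 CPM in Treg libraries (3.35, SE 0.47, adjusted p = 0.000262). It was also TH17-higher in WT libraries (6.77, interaction -3.41, adjusted p = 0.0163). Cd7, a surface protein of T and NK cells, was at 130.9, 115.8 and 130.8 CPM against 24.8, 10.3 and 15.6 CPM (2.90, SE 0.53, adjusted p = 0.00226), and was not called in WT libraries, which held 7.93 to 14.9 CPM (interaction 2.60, adjusted p = 0.0372). Asic3, an acid-sensing ion channel, was at 68.8, 52.6 and 206.5 CPM against 15.8, 7.47 and 26.1 CPM (2.73, adjusted p = 0.00145). Npas4, an activity-regulated factor best known in neurons, was at 3.45, 9.48 and 26.3 CPM against 1.44, 1.92 and 1.34 CPM (3.04, adjusted p = 0.00268). TH17 replicate 3 was the highest library for both of these genes. It also had the highest sums of myeloid, of basophil and mast cell, and of erythroid and platelet markers, and the lowest total count. Asic3 was lower in TH17 replicate 2 than in replicate 1, where the myeloid sums were 9650 and 670 CPM. The part of other cells or of depth in these results was not tested. Enpp2, Asic3 and Npas4 lost their calls with the 6 libraries alone (adjusted p of 0.0646, 0.13 and 0.0954), and Npas4 fell to 1.98 (adjusted p = 0.0866) without replicate 3 of both lineages. Without TH17 replicate 3 alone the fold change of Asic3 was 1.94 and that of Npas4 2.09, and both kept their calls. Nrgn, a calmodulin-binding protein, was at 63.5, 80.3 and 243.7 CPM against 23.3, 24.8 and 19.0 CPM, and without TH17 replicate 3 its fold change fell from 2.53 to 1.74 (adjusted p = 0.0568). Tff1, a secreted peptide of mucous epithelia with 31.4% of its exon length shared with other genes, was at 22.9, 15.9 and 36.0 CPM against 3.65, 3.13 and 3.71 CPM. Ccl24, an eosinophil attractant, lost its call without any of 4 libraries. Of the other TH17-higher genes of this set, A630023P12Rik and 5830411N06Rik were TH17-higher in both genotypes. Without Dohh 5830411N06Rik reached 64.5 to 102.7 CPM against 8.99 to 17.1 CPM.

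On the Treg side, Eomes, a T-box factor of cytotoxic and memory cells, was at 1.83, 1.53 and 6.20 CPM in TH17 and 16.7, 13.7 and 32.5 CPM in Treg libraries (-2.78, SE 0.54, adjusted p = 0.00299, and 0.0864 with the 6 libraries alone), and its fold change was -3.58 without TH17 replicate 3. Zfp683, which encodes the tissue-residency factor Hobit, was at 2.23, 0.88 and 0.60 CPM against 12.4, 9.19 and 10.0 CPM (-3.04, SE 0.61, adjusted p = 0.00376), and its fold change was -3.75 without TH17 replicate 1. Klra5, a receptor of the Ly49 family of NK cells, was at 3.15, 1.53 and 1.96 CPM against 17.3, 18.4 and 35.5 CPM (-3.42, SE 0.50, adjusted p = 0.000303), and held 0 to 0.23 CPM in the WT libraries. These 3 genes are known from cytotoxic lymphocytes, and the summed markers of CD8+ T and NK cells, at 513 to 625 CPM in Treg and 456 to 578 CPM in TH17 libraries, overlapped between the lineages. Cd8a also lay higher in Treg libraries, at 162 to 322 CPM against 76.1 to 137 CPM without overlap, but was not called. Of all genes tested, 16.3% lay without overlap on the Treg side. Within the TH17 libraries Cd8a was lowest in replicate 1, where Zfp683 and Klra5 were highest. Cd8a and Eomes were highest in TH17 replicate 3. The part of CD8+ cells in these results was not tested. Adcy5, an adenylate cyclase, was at 4.26, 5.55 and 7.10 CPM against 34.9, 37.6 and 36.0 CPM (-2.69, SE 0.38, adjusted p = 0.000304). Shroom3, an actin-binding protein of epithelia, was at 4.06, 3.13 and 1.96 CPM against 20.7, 19.5 and 29.1 CPM, and 24.9% of its exon length is shared with other genes. Gm35037, a predicted gene, was at 0.60 to 2.23 CPM against 13.3 to 17.6 CPM.

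Over all genes, 43 were called in opposite directions in the deficient and the WT libraries (0.309% of the genes tested). The interaction was called for each of them, but it is the difference of the same contrasts, so this adds no further support. Lad1, an anchoring filament protein of epithelia, was at 14.5, 12.1 and 13.1 CPM in TH17 and 1.88, 2.42 and 1.65 CPM in Treg libraries without Dohh, and at 2.75, 2.15 and 2.66 CPM against 45.8, 69.2 and 67.9 CPM in WT libraries. The groups did not overlap in either genotype, with fold changes of 2.73 (adjusted p = 0.000133) and -4.59 (adjusted p = 7.95e-08) and an interaction of 7.32 (adjusted p = 2.34e-08). Slc4a4, a sodium bicarbonate cotransporter, was turned the other way, at 0.91, 0.72 and 0.15 CPM against 8.40, 8.68 and 23.7 CPM without Dohh and at 5.73, 6.24 and 3.81 CPM against 1.13, 0.73 and 1.19 CPM in WT libraries (interaction -6.74, adjusted p = 4.48e-05). Pla2g4f, a phospholipase A2, was at 6.09, 6.51 and 19.0 CPM against 1.66, 3.53 and 3.30 CPM without Dohh, while WT Treg libraries held 109.9 to 139.4 CPM and WT TH17 libraries 5.66 to 9.24 CPM (interaction 5.95, adjusted p = 1.21e-06). Dkk3, an inhibitor of WNT signalling, Trat1, an adaptor of the T cell receptor, and Dhrs3, a retinal reductase, were also TH17-higher without Dohh and Treg-higher in WT libraries, with interactions of 6.72, 5.92 and 5.80. Trat1 lost its call without TH17 replicate 2 (adjusted p = 0.136), Treg replicate 2 (0.109) or Treg replicate 3 (0.0977). Dhrs3 lost its call without any library but TH17 replicate 1, and Dkk3 and Pla2g4f lost theirs with the 6 libraries alone (adjusted p of 0.091 and 0.133).

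Other genes of the interaction were called in WT libraries alone. Ltb4r1, the leukotriene B4 receptor, was at 36.7, 37.9 and 26.9 CPM in TH17 and 50.9, 38.4 and 25.7 CPM in Treg libraries without Dohh, with overlap (-0.18, adjusted p = 0.775), and at 55.4 to 77.7 against 1.11 to 4.52 CPM in WT libraries (interaction -4.79, adjusted p = 6.36e-06). Selp, the adhesion molecule P-selectin, was at 1.29 to 2.42 against 0.61 to 1.24 CPM without Dohh and at 39.0 to 57.3 against 0.36 to 1.02 CPM in WT libraries. Cdhr3, a cadherin, was at 0.24 to 1.81 against 0.31 to 0.55 CPM without Dohh, and at 0.92 to 1.37 against 26.7 to 46.2 CPM in WT libraries. Ly6g, a protein best known from neutrophils, was at 1.32, 6.35 and 7.40 CPM against 0.66, 2.93 and 1.65 CPM without Dohh. In WT libraries it was at 35.4, 53.8 and 22.8 CPM in TH17 cells and had no count in Treg cells. The difference was at least 102-fold against the highest floor of a single WT Treg library, 3 counts or 0.365 CPM.

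Lineage signatures were taken from other WT libraries, those that accompany the Odc-deficient libraries of the series, as the 100 genes of at least 5 CPM with the largest fold change in each direction. Of the 100 TH17-high genes, 23 were TH17-higher and 5 Treg-higher without Dohh (2.69% and 1.51% of all genes), with a median log2 fold change of 0.83. In WT libraries of the Dohh experiment 87 were TH17-higher (3.85% of all genes), with a median of 3.07. The interaction was called as smaller without Dohh for 45, where 2.32% of all genes had a lower ratio called. Of the 100 Treg-high genes, 15 were Treg-higher and 11 TH17-higher without Dohh, with a median of 0.30 and quartiles of -1.02 and 0.98. In WT libraries 87 were Treg-higher (3.22% of all genes) with a median of -2.84. The interaction was called as smaller without Dohh for 62, where 2.81% of all genes had a higher ratio called. In the fit of the 6 libraries alone 4 and 3 signature genes were called in their own direction.

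The mean log2 CPM over the TH17-high signature was 2.61, 2.74 and 2.03 in TH17 and 1.76, 1.86 and 1.92 in Treg libraries without Dohh. The TH17 libraries remained higher, by less than in WT libraries, where the values were 3.54, 3.61 and 3.20 against 0.69, 0.16 and 0.28. Over the Treg-high signature the values were 1.48, 2.00 and 2.11 in TH17 and 1.55, 2.11 and 2.05 in Treg libraries, which overlapped. WT libraries held 1, 0.97 and 1.005 against 3.60, 3.91 and 4.01, so that both deficient lineages lay between the WT lineages. Over the 200 genes, the fold change without Dohh had a slope of 0.196 on that in WT libraries (Pearson's r 0.419 across genes, which are not independent replicates and come from libraries cultured alike).

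**Figure D5:**
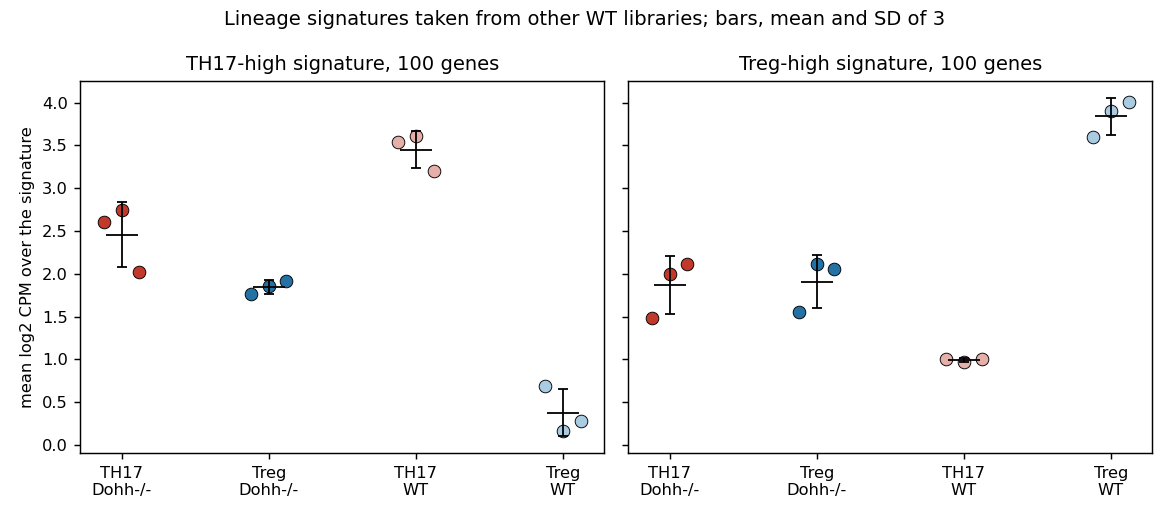
Mean log2 CPM over the TH17-high and the Treg-high signature of 100 genes each in every library (points), with the mean and SD of 3 libraries. The TH17-high signature separates deficient TH17 libraries at 2.03 to 2.74 from Treg libraries at 1.76 to 1.92, while the Treg-high signature overlaps at 1.48 to 2.11 and 1.55 to 2.11.

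The same lineages without Odc, the enzyme that starts polyamine synthesis, were available as 4 libraries each, in a table that was counted and normalized separately. There 561 genes were TH17-higher and 669 Treg-higher of 13839 tested. Of the 349 genes TH17-higher without Dohh that both tables tested, 86 (24.6%) were TH17-higher without Odc and 35 (10.0%) Treg-higher, beside 3.93% of all 12924 shared genes that were TH17-higher. Of the 206 Treg-higher genes, 64 (31.1%) were Treg-higher without Odc and 15 (7.28%) TH17-higher, beside 4.62% of all shared genes. Foxp3 had a fold change of -1.93 without Odc, in the direction seen without Dohh. Il17a and Il21, which were not called without Dohh, had fold changes of 5.67 and 8.42 without Odc. Il10 was TH17-higher without Odc (2.48) and Lad1 and Ccl1 were Treg-higher (-3.84 and -4.89), each opposite to its call without Dohh. Gzmb was not called without Odc (-0.49). Differences between the deletions were not tested here, since the tables differ in their libraries and counting.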

How the data were processed

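The counts are raw reads per gene as deposited by the authors, whole numbers without normalization, 1 column per library and 24 in the table used, all of which were mapped to labelled samples. Per the labels and methods, libraries were made with a stranded TruSeq mRNA kit, processed with deepTools, mapped to mm10 with STAR and counted with featureCounts. The annotation release and strand setting are not given in the sources used here. Gene positions are from GENCODE M21 (GRCm38).

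All 24 libraries were fitted in edgeR 4.0.16 (R 4.3.3, limma 3.58.1) after filterByExpr and TMM scaling, with 1 mean for each of 8 groups, robust quasi-likelihood dispersions and Benjamini-Hochberg adjustment. Contrasts were TH17 minus Treg in libraries labelled Dohh-/-, in WT libraries, and the difference of both. In simulated counts of 13619 genes, the contrast without Dohh recovered 92 of 100 genes changed 3-fold and 96 of 100 changed 6-fold with 9 false calls, and the interaction 74 and 93 with 9. Counts were drawn independently, with 1 spread per gene shared by all 8 groups. Libraries labelled Dohh-/- varied more than WT libraries (correlations within a lineage of 0.915 to 0.979 against 0.983 to 0.99). The simulation therefore cannot give the rate of false calls among them. Same-numbered TH17 and Treg libraries labelled Dohh-/- deviated together from their group means (correlations of 0.644, 0.265 and 0.43). In WT libraries these were 0.252, 0.11 and 0.045. The replicate number was therefore tried as a block. Calls and adjusted p come from the fit without this pairing unless the block is named. Il17a was called without Dohh only where the block was used (adjusted p = 0.0228 in edgeR) or replicate 3 of both lineages was left out.

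The comparison, gene lists, tests and naming rule were chosen with earlier results of these data known. Named genes are Dohh, the defining lineage genes, the 12 largest called fold changes per direction with at least 10 CPM and no overlap, the 8 largest interactions per direction, and up to 4 called members per list. Other list members were named after their values were seen. Columns of other subsets served only the error estimate. Alternatives were RLE scaling, DESeq2 1.42.0, other filters and thresholds, fewer libraries, a block and other signatures. Figures were made in matplotlib 3.10.9 (Python 3.11.15) from tables handled with pandas 2.3.3 and numpy 2.4.6. Some items that the naming rule selects are not reported here.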

Additional observations from a re-analysis of the deposited data

Results flagged for a closer look

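Of 89 named genes, 41 stood out because their TH17-over-Treg log2 fold change differed between libraries labelled Dohh-/- and WT libraries, by edgeR's interaction test with Benjamini-Hochberg adjustment and a difference of over 1. For 20 the fold change was higher without Dohh and for 21 it was lower. Since 16 of the named genes were chosen for the size of this difference and others for being called, these counts are not read against those over all genes.

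Genes on the higher side include some that were Treg-higher in WT libraries, such as the Treg program gene Cd83 and the T cell receptor adaptor Trat1. In log2 units they were Lcn10 (11.36), Lad1 (7.32), Dkk3 (6.72), Ccl1 (6.48), Pla2g4f (5.95), Trat1 (5.92), Dhrs3 (5.80), Cdhr3 (5.67), Cd83 (5.34), Nrgn (5.05), Npas4 (4.57), Tff1 (4.08), Ccr6 (3.25), Nr4a1 (3.04), Gata3 (2.69), Ccl5 (2.66), Cd7 (2.60), Ikzf2 (2.51), A630023P12Rik (1.33) and Bach2 (1.28). The fitted values of Lcn10 and Ccl1 depend on the prior count, since WT TH17 libraries held 1 count of Lcn10 and 2 of Ccl1 in all. From the counts, WT Treg libraries held 306 times as much Lcn10 (counting interval 54.5 to 12100) and 14.1 times as much Ccl1 (3.58 to 122) as WT TH17 libraries.

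On the lower side stood the TH17 cytokines Il17a, Il17f and Il21, the receptor Il23r, and genes that were Treg-higher without Dohh, such as Il10, Lrrc32 and Gzmb. These differences were Slc7a5 (-1.21), Socs3 (-1.74), Gzmb (-2.28), Bnip3 (-2.54), Gpr83 (-2.67), Ahr (-2.90), Nfil3 (-3.05), Enpp2 (-3.41), Lrrc32 (-3.44), Il23r (-3.64), Tgfb3 (-3.66), Shroom3 (-4.05), Il17f (-4.14), Ltb4r1 (-4.79), Il17a (-4.86), Il24 (-4.90), Selp (-5.06), Il10 (-5.25), Il21 (-6.08), Slc4a4 (-6.74) and Ly6g (-10.04). Ly6g, with no count in WT Treg libraries, and Il23r, with 1, again have fitted values that are no bounds. Without Treg WT replicate 3 the adjusted p of the difference was 0.0612 for Ccl1 and 0.0583 for Il24, which was also over 0.05 without TH17 replicate 3 labelled Dohh-/- (0.0541) and without WT TH17 replicate 1 (0.0535) or 2 (0.0519).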

How the results depend on the processing

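The count of 584 genes called between the lineages without Dohh was 107 with the 6 libraries alone, 50 with glmTreat and 1221 by the adjusted p alone, and 273 to 845 with libraries left out, the lowest without replicate 3 of both lineages (an alternative chosen after seeing the data) and 358 without Treg replicate 2. The WT count of 982 was 605 at a mean count of at least 50, 319 with glmTreat, 1537 by the adjusted p alone, and 676 to 889 with a library left out. The 713 interaction calls were 190 with glmTreat and 502 to 930 with libraries left out. The 23 TH17-high signature genes were 12 at a mean count of at least 50, 4 with the 6 libraries alone, 7 with glmTreat, and 17 to 24 with libraries left out. The 15 Treg-high signature genes were 3 with the 6 libraries alone, 6 with glmTreat, 9 in a signature of 50 genes and 11 to 17 with libraries left out. With DESeq2, RLE scaling (median gene shifted by less than 0.1), no filter and the replicate block, these counts stayed within 1.5 times. The replicate block gave 655, 1058 and 800 calls, added Il17a (1.33) and removed Smox (0.99) among named genes.

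Of 66 called named genes, 19 were called in every alternative fit that gave a value, glmTreat aside, and none turned its sign. Counting these together with the 16 named interactions, the fits with the compared libraries alone ended 41 calls and the fit without replicate 3 of both lineages 28. Genes without a call turned sign as follows. Ahr was at -0.0056 under the replicate block. With single libraries left out, Ahr ranged from -0.16 to 0.33, Socs3 from -0.017 to 0.62, Ccl20 from -0.48 to 0.031, Cdhr3 from -0.67 to 1.10, Ctla4 from -0.72 to 0.14, Ifng from -0.85 to 0.13, Ltb4r1 from -0.37 to 0.078, Tbx21 from -0.61 to 0.084, Tnfrsf18 from -0.46 to 0.018 and Il22 from -1.23 to 0.52. Without replicate 3 of both lineages Cdhr3 was at -0.90, Ifng at 0.24, Ikzf4 at 0.0012 and Il22 at 0.63. The cause of these shifts was not tested. With 3 libraries a group, genes near 0.226 to 0.453 CPM are limited by depth.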
